A study of Mus musculus with 52 samples.

Results

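This report is about 8 genes that build the fenestral diaphragm and caveolae of endothelial cells (ECs): Plvap, Cav1, Cav2, Cavin1, Cavin2, Cavin3, Ehd2 and Pacsin2. They were taken by name from the 49585 genes quantified, and each was followed by its reads summed over transcripts in every RNA library and by the open chromatin within 50 kb of it. The 52 samples, all from mice, make up 26 groups with 2 replicates each, namely 24 libraries of RNA from sorted cells, 16 RiboTag libraries and 12 ATAC-seq libraries from sorted ECs. All animals were labelled adult and male.

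The question was how EC genes differ between barrier capillaries (cerebellum, cortex) and permeable ones (anterior pituitary, posterior pituitary, choroid plexus), and what stabilizing beta-catenin in ECs changes. For sorting, WT animals carried the Tie2-GFP reporter alone, and stabilized animals carried Tie2-GFP with Pdgfb-CreER and the BcatEx3fl allele, in which Cre removes the exon of Ctnnb1 that marks beta-catenin for degradation. GFP-positive cells were labelled vascular endothelial and GFP-negative cells non-endothelial. In RiboTag animals an HA-tagged ribosomal protein is made in cells with Cre, so that RNA bound to anti-HA beads is enriched for that of those cells (markers of other cells were still present, as given below) and the input is an aliquot of the whole homogenate. RiboTag WT animals carried RiboTag and Pdgfb-CreER, and the stabilized ones BcatEx3fl as well. CreER needs 4-hydroxytamoxifen, and it acts in a share of ECs that these files do not show. The methods state the drug for the stabilized animals of the sort and, in the RiboTag groups, for both genotypes. Thus in the sorted cells Pdgfb-CreER, the allele and, as far as stated, the drug changed together and cannot be told apart, whereas in the RiboTag groups both genotypes carried the Cre. Pituitaries and choroid plexi of several mice were pooled per replicate, and by the methods both lobes came from the same pituitaries, so that comparisons between the lobes share animals. One stabilized anterior pituitary GFP-positive library (replicate 2) has a tissue label that reads posterior, against its title and source, and it was kept as anterior. Its 6 pituitary hormone genes summed to 4088 counts scaled to library size (CPM, explained below), against 3258 to 5821 in the other anterior and 326 to 2423 in the posterior GFP-positive libraries. Values without it stand beside the results on the members that it could change. They are not given for the related genes.

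Plvap encodes the protein of the thin diaphragm that spans fenestrae, caveolae and transendothelial channels. Caveolae are flask-shaped pits of the plasma membrane: Cav1 is the caveolin they cannot form without, Cav2 its partner, Cavin1 the coat protein that shapes them, and Cavin2 and Cavin3 adaptors of that coat. Ehd2, an ATPase, and Pacsin2, a membrane-bending F-BAR protein, sit at the neck. Capillaries of pituitary and choroid plexus are fenestrated, whereas those of the brain parenchyma lack fenestrae and hold few vesicles.

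Sequences of 4 open regions and of 1 promoter are shown because the comparisons of chromatin turn on them. All are from GRCm38, 5′ to 3′ on the strand of the gene. Capitals mark matches, on either strand, to TTCAAAG and ATCAAAG (the core bound by TCF/LEF factors, partners of beta-catenin), to CAGGAA and CCGGAA (cores bound by ETS factors) and to GGGCGG (the core bound by SP factors). The region at the start of Plvap, of which the 229 bases before the start are given, was open in the pituitary libraries and not in those of cerebellum (chr8:71511753-71511981, minus strand, 59.0% GC). The region 5270 bases before that start was open in all anterior pituitary libraries (chr8:71516872-71517171, minus strand). The region 5390 bases before Cavin3 was a further pituitary one (chr7:105487540-105487839, minus strand). The region 39881 bases before Cav2 was open in cerebellum alone (chr6:17241154-17241453, plus strand). The RefSeq promoter of Cav1, the 250 bases before its start (build GRCm38.p6, chr6:17306085-17306334, plus strand), lay in a region open in all 12 libraries.
Plvap start: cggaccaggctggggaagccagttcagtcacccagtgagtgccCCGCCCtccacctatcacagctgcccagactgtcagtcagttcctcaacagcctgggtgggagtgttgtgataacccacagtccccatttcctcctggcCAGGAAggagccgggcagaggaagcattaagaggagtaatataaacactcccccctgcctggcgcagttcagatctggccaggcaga
Plvap -5270: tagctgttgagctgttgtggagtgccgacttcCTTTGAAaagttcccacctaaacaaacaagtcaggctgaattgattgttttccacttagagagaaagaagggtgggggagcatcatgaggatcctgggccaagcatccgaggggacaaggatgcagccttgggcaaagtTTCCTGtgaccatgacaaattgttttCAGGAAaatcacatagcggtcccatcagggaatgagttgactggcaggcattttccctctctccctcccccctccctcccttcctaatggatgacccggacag
Cavin3 -5390: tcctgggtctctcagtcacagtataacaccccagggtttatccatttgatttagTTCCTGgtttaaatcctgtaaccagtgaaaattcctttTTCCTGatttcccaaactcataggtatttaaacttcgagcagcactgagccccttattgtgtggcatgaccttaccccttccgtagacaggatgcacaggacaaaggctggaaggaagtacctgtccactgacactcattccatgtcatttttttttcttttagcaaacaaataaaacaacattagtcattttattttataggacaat
Cav2 -39881: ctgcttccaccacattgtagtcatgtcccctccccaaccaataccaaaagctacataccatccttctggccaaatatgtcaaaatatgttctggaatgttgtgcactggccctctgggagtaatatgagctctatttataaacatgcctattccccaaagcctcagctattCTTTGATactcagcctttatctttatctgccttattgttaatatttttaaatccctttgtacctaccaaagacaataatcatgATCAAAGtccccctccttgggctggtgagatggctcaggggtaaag
Cav1 promoter: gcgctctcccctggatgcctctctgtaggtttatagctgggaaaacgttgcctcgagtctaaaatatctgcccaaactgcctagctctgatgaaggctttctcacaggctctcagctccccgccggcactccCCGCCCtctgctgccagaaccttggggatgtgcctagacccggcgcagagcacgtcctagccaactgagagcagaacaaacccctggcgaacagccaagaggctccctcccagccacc

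The 40 RNA libraries held 6409013 to 37529274 estimated counts. All 8 members passed the filter on low counts in every fit. Levels between libraries are given as CPM, read counts scaled to library size with edgeR's TMM factors, and levels between genes as TPM, which also correct for transcript length. No fold change or test of a member rests on TPM, because their scale differed between groups: the median gene had a log2 TPM ratio of -0.94 for stabilized against WT posterior pituitary ECs and of -1.58 for stabilized against WT cortex input, where the scaled counts gave 0.01 and 0.03. A gene was called changed at an edgeR adjusted p under 0.05 over all genes tested and a fold of at least 2. Replicates are not described as separate litters or days, so the p-values measure only the spread between these libraries. In bulk RNA, fewer cells of a type and less RNA per cell cannot be told apart. Each library summed over the 10 endothelial markers 1939 to 6252 TPM in GFP-positive cells, 2.23 to 35.2 TPM in GFP-negative cells and 452 to 1170 TPM in bound RNA, with no marker at 0 in the first and last. Gene sums do not show the deleted exon, so the allele was not checked here.

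Markers of other cells differed between groups. The 8 microglia and macrophage markers summed to 0.669 to 11.5 CPM in WT GFP-positive libraries, but to 230 to 475 CPM in stabilized anterior and 417 to 531 CPM in stabilized posterior pituitary ECs. The 6 pituitary hormone genes summed to 3258 to 5821 CPM in anterior pituitary ECs of both genotypes, 326 to 2423 CPM in posterior pituitary ECs and 1.05 to 29.3 CPM in cerebellum ECs. The 10 mural cell markers reached 3373 to 3553 CPM in WT cerebellum ECs and 2317 to 2482 CPM in stabilized ones. In the anterior pituitary they summed to 839 to 954 CPM in WT and 1047 to 1139 CPM in stabilized ECs. In the posterior pituitary they summed to 575 to 598 CPM in WT and 314 to 395 CPM in stabilized ECs. In posterior pituitary ECs the 6 fibroblast markers summed to 64.5 and 69.8 CPM in WT and 29.4 and 19.8 CPM in stabilized libraries, and the 5 markers of choroid plexus epithelium to 9.89 and 4.62 against 40.1 and 51.5 CPM. The 5 erythrocyte markers summed to 32448 CPM in WT cerebellum replicate 1, the library with Plvap at 0, against 4449 CPM in replicate 2, 6611 and 7943 CPM in stabilized cerebellum and 405 to 3277 CPM in pituitary ECs. The part of these markers in the results on the members was not tested.

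Plvap set the vascular beds furthest apart. In WT cerebellum ECs it was at 0 and 26.2 CPM, where 3 counts in the first library would have been 0.0858 CPM. In WT anterior pituitary ECs it was at 2023 and 2462 CPM, and in WT posterior pituitary ECs at 2106 and 2215 CPM. The pituitary libraries of both lobes overlapped and every one lay far above the cerebellum libraries. The log2 difference of cerebellum against anterior pituitary was -7.43 ± 1.85 (SE, n = 2 a group, edgeR adjusted p = 0.034) and against posterior pituitary -7.37 ± 1.84 (edgeR adjusted p = 0.040). The size of the fold rested on the cerebellum library with 26.2 CPM: without it (replicate 2) the comparison is with a group at 0, and without the other (replicate 1) the log2 difference was -6.44 and -6.38. In that library the 5 markers of choroid plexus epithelium, a tissue whose capillaries are fenestrated, summed to 101 CPM, against 0.715 CPM in the library without Plvap, and their part in its Plvap level was not tested. Fitted on the groups compared alone, with their own estimate of the spread, the adjusted p was 0.14 and 0.22. Between the lobes Plvap differed by 0.05 ± 1.39 on the log2 scale, with a 95% interval of from -2.97 to 3.07.

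By length, Plvap was the leading member in pituitary ECs, at 937 ± 130 TPM (SD, n = 2) in the WT anterior and 1136 ± 33.6 TPM in the WT posterior lobe, where the next member was at 130 ± 0.41 TPM (Cavin3) and 301 ± 83.6 TPM (Cav1). In WT cerebellum ECs Plvap was the lowest of the 8 at 5.34 ± 7.55 TPM, and Cav1 led at 167 ± 19.3 TPM. Plvap has 1 annotated transcript (Plvap-201, 1987 bases). Cav1 has several that differ in length: the long Cav1-201 took from 24.4 to 100% of its TPM, and the 323-base Cav1-206 up to 75.6%, that high in WT anterior pituitary replicate 1 alone, so the gene's TPM of 68.4 and 24.1 in these replicates came from nearly equal read counts.

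Among the caveolins, Cav1 separated the 2 lobes of the pituitary. It stood at 56.8 and 51.4 CPM in WT anterior pituitary ECs, at 576 and 582 CPM in WT posterior pituitary ECs and at 391 and 544 CPM in WT cerebellum ECs. The anterior lobe was thus the low group, and posterior lobe and cerebellum were close to each other. Cav1 was lower in the anterior than in the posterior lobe by a log2 difference of -3.42 ± 0.32 (edgeR adjusted p = 0.00015), and higher in cerebellum than in anterior lobe by 3.11 ± 0.31 (edgeR adjusted p = 5.0e-05). With an offset for the effective length of the transcripts, the difference between the lobes was -2.35 with an adjusted p of 0.055. Cav2, next to Cav1 on chromosome 6, was at 231 and 229 CPM in WT cerebellum, 148 and 143 CPM in WT anterior pituitary and 230 and 170 CPM in WT posterior pituitary ECs. The anterior lobe was lowest there too, without a call in any of the 3 comparisons. Scaled to the summed endothelial markers, Cav2 was called higher in cerebellum than in the anterior (1.10, adjusted p = 0.038) and the posterior lobe (1.01, adjusted p = 0.045).

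The cavins did not follow one another. Cavin3 was at 31.2 and 35.2 CPM in WT cerebellum ECs, 218 and 188 CPM in WT anterior and 148 and 104 CPM in WT posterior pituitary ECs. It was lower in cerebellum than in the anterior lobe by 2.61 ± 0.27 on the log2 scale (-2.61, edgeR adjusted p = 7.3e-05) and than in the posterior lobe (-1.92 ± 0.27, edgeR adjusted p = 0.00081). The latter call was lost in the groups compared alone, where the difference was much the same (-1.91, adjusted p = 0.052). Cavin2 stood at 299.1 and 254 CPM in WT cerebellum, 490 and 485 CPM in WT anterior and 528 and 601 CPM in WT posterior pituitary ECs, with a call against the posterior lobe alone (-1.03 ± 0.25, edgeR adjusted p = 0.031). That call, near the minimum fold, was lost with the length offset (adjusted p = 0.19) and when libraries were scaled to the summed endothelial markers, where the log2 difference was -0.19. It was also lost without either WT cerebellum library (-1.16 and -0.91) and without WT posterior pituitary replicate 2 (-0.92). Cavin1 was at 433 and 490, 298 and 360, and 358 and 692 CPM in the same order of groups, and the ranges of cerebellum and posterior lobe overlapped.

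Of the neck proteins, Ehd2 had 242 and 356 CPM in WT cerebellum, 275 CPM in both WT anterior and 466 and 789 CPM in WT posterior pituitary ECs. The posterior lobe was above the others, but neither difference was called by edgeR (anterior against posterior -1.19, edgeR adjusted p = 0.16). By DESeq2 both were called, anterior against posterior at -1.19 (DESeq2 adjusted p = 0.011) and cerebellum against posterior at -1.09 (DESeq2 adjusted p = 0.015). By edgeR without the filter on low counts both were too. Without WT posterior pituitary replicate 1, the lower one, both were (-1.51 and -1.40 against the posterior lobe). Pacsin2 was at 34.9 to 101 CPM in all 6 WT libraries, without a call. Its anterior lobe libraries (34.9 and 71.8 CPM) overlapped both other groups. The posterior lobe (57.2 and 101 CPM) lay above cerebellum (49.9 and 55.0 CPM). Counted together, 3 of 8 members were called between WT cerebellum and anterior pituitary, against 5.26% of the 17915 genes tested, 3 of 8 between cerebellum and posterior pituitary (4.4% of genes), and 1 of 8, Cav1, between the lobes (0.994% of genes). The median log2 difference of the members was 0.05, -0.81 and -0.51 in these comparisons, and that of all genes 0.

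**Figure D1:**
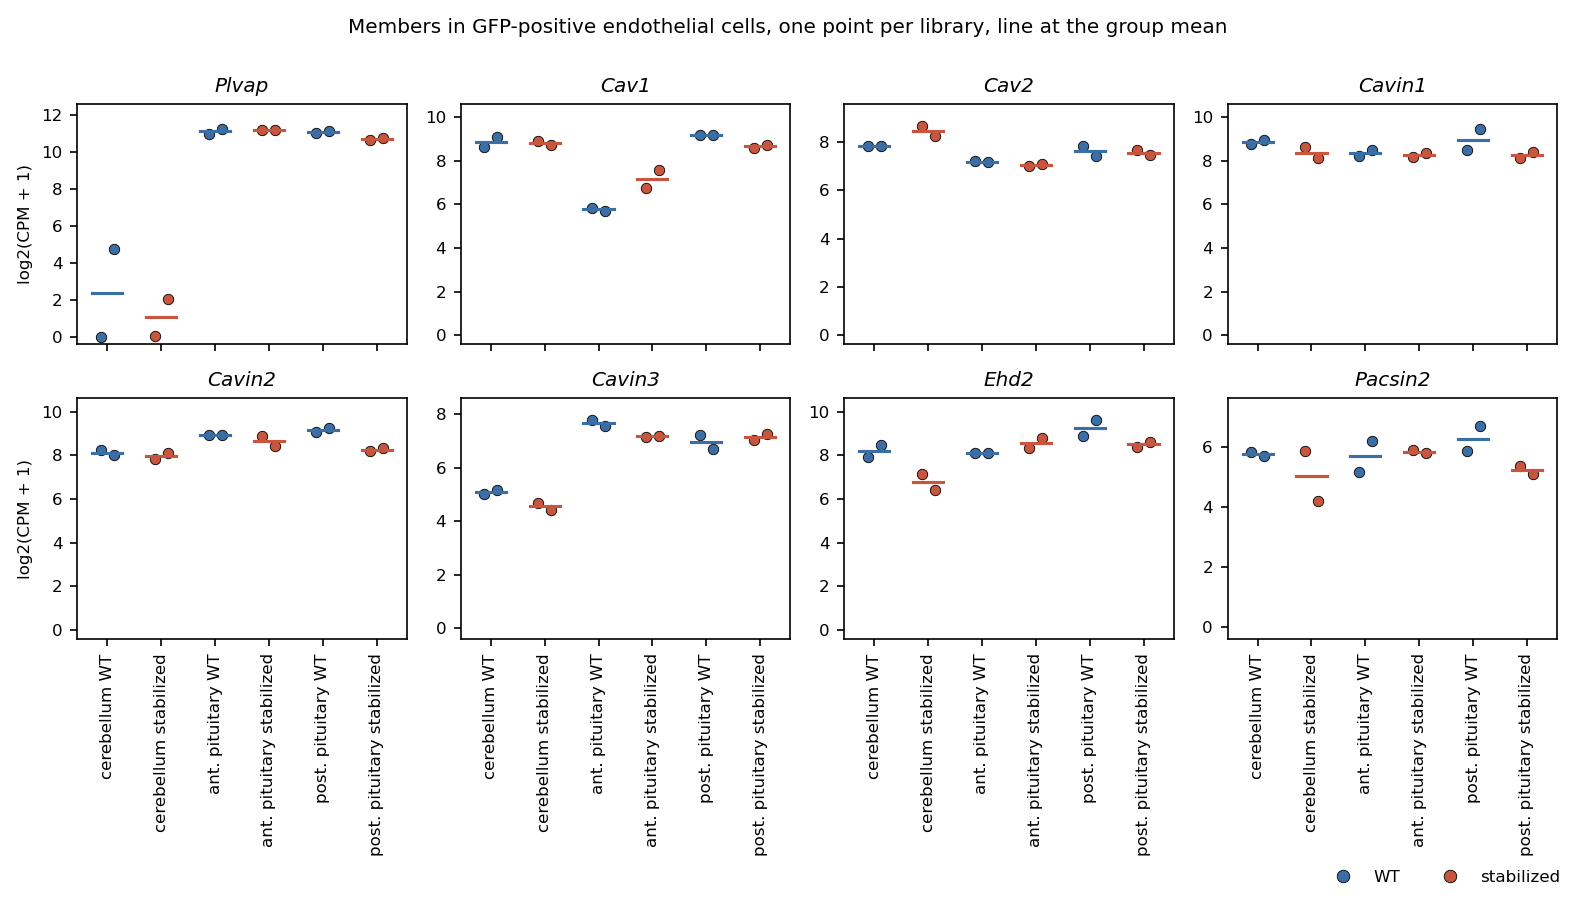
Level of each member in GFP-positive ECs as log2(CPM + 1), with 1 point per library and a line at the group mean, WT in blue and stabilized in red, for cerebellum, anterior pituitary and posterior pituitary. Plvap was near the floor in cerebellum (0 to 26.2 CPM) and at 1585 to 2462 CPM in every pituitary library, Cav1 was lowest in the anterior lobe, and Cavin3 lowest in cerebellum.

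The members were mostly EC genes in the sorted tissue. In WT posterior pituitary, Plvap stood at 2024 and 2134 CPM in GFP-positive against 0.137 and 0 CPM in GFP-negative cells, and Cav1 at 553 and 561 against 0.220 and 0.0473 CPM. Of the 8 members, 7 were called higher in GFP-positive cells of that lobe (14.5% of genes called in either direction) and 7 in those of the anterior lobe (11.3% of genes). Pacsin2 was the exception in both, at 33.5 and 36.8 CPM in GFP-negative against 33.7 and 69.7 CPM in GFP-positive anterior pituitary cells. The Plvap call in the anterior lobe was lost without GFP-negative replicate 2 (adjusted p = 0.057). That of Cavin3 in the posterior lobe (4.49) was lost in the groups compared alone (4.56, adjusted p = 0.063), and its difference was 3.75 and 7.18 without GFP-negative replicate 1 and 2. In WT cerebellum 5 of 8 were higher in ECs (11.3% of genes): Cav1 (log2 difference 5.01), Cavin2 (4.68, and 5.72 without GFP-negative replicate 2), Cav2 (4.44), Cavin1 (3.57) and Ehd2 (3.52). Cavin3 was not among them: it had 52.7 and 21.2 CPM in GFP-negative and 30.6 and 33.6 CPM in GFP-positive cerebellum cells.

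Plvap was not called between genotypes in ECs of either pituitary lobe. Stabilized anterior pituitary ECs had 2335 and 2361 CPM, within the WT range of 2023 to 2462 CPM, and the log2 difference was 0.07 ± 1.39 (95% interval from -2.95 to 3.09). Stabilized posterior pituitary ECs had 1585 and 1761 CPM, both below the WT libraries (2106 and 2215 CPM), with a log2 difference of -0.37 ± 1.39 (95% interval from -3.39 to 2.65, edgeR adjusted p = 0.97). These intervals are wide, since the spread of Plvap was estimated over all 6 groups, cerebellum included, and a change of several fold lies inside them. In cerebellum ECs Plvap was at 0.035 and 3.14 CPM in stabilized against 0 and 26.2 CPM in WT libraries, and the groups overlapped (-3.08, and -4.05 with an adjusted p of 0.0059 without the WT library at 0). The 5 choroid plexus epithelium markers, given above for the WT libraries, summed to 2.8 and 0.091 CPM in these stabilized ones, and their part was not tested. Stabilized pituitary ECs thus kept Plvap above WT cerebellum ECs, by a log2 difference of 7.49 ± 1.85 in the anterior lobe (edgeR adjusted p = 0.041; 6.52 without WT cerebellum replicate 1, and 7.52 with the call lost at an adjusted p of 0.12 in the groups compared alone) and of 7.0 ± 1.81 in the posterior lobe, where the adjusted p was 0.058. Without WT cerebellum replicate 2 either comparison is with a group at 0. The posterior one was called by DESeq2 (7.05, DESeq2 adjusted p = 0.017). By edgeR it was called with the replicate block (7.74, adjusted p = 0.020), with the length offset (7.17, adjusted p = 0.036), with endothelial marker scaling (7.32, adjusted p = 0.048) and without the filter on low counts. It was also called without WT cerebellum replicate 1 (6.03) and without either stabilized library (7.07 and 6.92).

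The largest estimate among caveolins was for Cav1 in the anterior pituitary. It stood at 108 and 190 CPM in stabilized against 56.8 and 51.4 CPM in WT ECs, so that both stabilized libraries were above both WT ones. The 6 fibroblast markers were higher in the same libraries, at 103 and 67.8 CPM against 45.8 and 36.7 CPM. So were the 10 mural cell markers, at 1139 and 1047 CPM against 839 and 954 CPM. The part of both was not tested. The log2 difference was 1.46 ± 0.29 (95% interval from 0.83 to 2.1, edgeR adjusted p = 0.060), not called by edgeR. It was called by DESeq2, and by edgeR with the replicate block (1.43, adjusted p = 0.041) and without the filter on low counts (1.48, adjusted p = 0.00018). Without stabilized replicate 1 it was 1.83 (adjusted p = 0.00073), and without replicate 2, the library with the conflicting tissue label, 1.01 (adjusted p = 0.45). Its level remained under that of WT cerebellum ECs (log2 difference -1.65 ± 0.29, edgeR adjusted p = 0.0055). That call was lost with the length offset (-1.68, adjusted p = 0.11) and in the groups compared alone (-1.63, adjusted p = 0.055). Without stabilized replicate 1, where the call was lost too, the difference was -1.28. Without the library with the conflicting label it was -2.1. In the posterior pituitary Cav1 was at 389 and 418 CPM in stabilized against 576 and 582 CPM in WT ECs, and the genotype effect of the posterior minus the anterior lobe was -1.99 ± 0.41 (95% interval from -2.88 to -1.10, edgeR adjusted p = 0.11), or -1.50 without the library with the conflicting label. It was called without stabilized anterior replicate 1 (-2.33, adjusted p = 0.0035) and without WT posterior replicate 1 (-1.98, adjusted p = 0.021). In cerebellum it was at 476 and 417 CPM against 391 and 544 CPM, with overlap. Cav2 stood at 413 and 308 CPM in stabilized against 231 and 229 CPM in WT cerebellum ECs, at 129 and 135 against 148 and 143 CPM in the anterior lobe, and at 203 and 175 against 230 and 170 CPM in the posterior lobe.

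Ehd2 had the largest estimate in cerebellum among members with at least 3 counts in each library. It stood at 139 and 84.3 CPM in stabilized against 242 and 356 CPM in WT ECs, with no overlap, and the log2 difference was -1.42 ± 0.34 (95% interval from -2.16 to -0.68, edgeR adjusted p = 0.10). Beside it, the 6 fibroblast markers summed to 6.19 and 0.773 CPM in stabilized against 45.3 and 58.2 CPM in WT cerebellum ECs, and their part was not tested. DESeq2 called Ehd2, and edgeR did without stabilized replicate 1 (-1.83, adjusted p = 0.023) or WT replicate 1 (-1.64, adjusted p = 0.026). In the anterior pituitary its level was 319 and 446 CPM against 275 CPM in both WT libraries, and in the posterior pituitary 334 and 390 against 466 and 789 CPM. Cavin2 had 294 and 318 CPM in stabilized against 528 and 601 CPM in WT posterior pituitary ECs (-0.88 ± 0.24, edgeR adjusted p = 0.11). Cavin1 had 277 and 334 against 358 and 692 CPM there (-0.78, and -1.16 with an adjusted p of 0.030 without WT replicate 1), and Pacsin2 40.1 and 33.2 against 57.2 and 101 CPM. Cavin3 stood at 132 and 154 CPM in stabilized against 148 and 104 CPM in WT posterior pituitary ECs, and the groups overlapped. Whether the members differ from each other in their change was not tested.

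None of the 8 members was called between genotypes by edgeR in any of the 3 tissues. In cerebellum ECs, where 0.648% of genes were called, 2 members had an unadjusted p under 0.05 and DESeq2 called 1. In anterior pituitary ECs, at 0.458% of genes, these counts were 1 and 1, and in posterior pituitary ECs, at 1.79% of genes, 3 and 0. The estimates were below 0 for 7 of 8 members in cerebellum and in posterior pituitary, and for 4 of 8 in anterior pituitary. In GFP-negative cells of cerebellum they were below 0 for 8 of 8, so this direction was not particular to ECs there. In the posterior lobe the fibroblast and mural markers given above were lower in stabilized ECs. Those of microglia and of choroid plexus epithelium were higher, and their part was not tested. Beside the estimates of the posterior lobe, the 10 endothelial markers summed to 12038 and 13065 CPM in WT and to 6182 and 6839 CPM in stabilized posterior pituitary ECs. Scaled to that sum, the estimates below 0 were 1 of 8 in posterior pituitary, 5 of 8 in cerebellum and 4 of 8 in anterior pituitary, so that the direction of most members in the posterior lobe turned with the scale. Plvap was then at 0.58, Cavin2 at 0.07 and Pacsin2 at -0.14 there, and 1 member was called, Cavin3, with a log2 difference of 1.11 (adjusted p = 0.033). With the length offset 8 of 8 were below 0 there.

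The difference of the genotype effect between tissues was called for none of the members either. For the posterior minus the anterior pituitary 0.128% of genes were called by edgeR, 2 members had an unadjusted p under 0.05 and DESeq2 called 1, Cav1. For the posterior pituitary minus cerebellum these values were 0.927%, 1 and 0. For the anterior pituitary minus cerebellum they were 0.519%, 3 and 2, the last being Cav1 and Ehd2. By edgeR both were called for the latter difference without stabilized anterior replicate 1 (1.88 and 2.12), Ehd2 also without replicate 1 of WT or of stabilized cerebellum (2.13 and 2.31), and Plvap without WT cerebellum replicate 1 (4.13). Without the library with the conflicting label Cav1 was at 1.05 and Ehd2 at 1.62, where the full data gave 1.53 and 1.90. Compared with WT cerebellum ECs, 3 of 8 members were called in stabilized anterior pituitary ECs (Plvap, Cav1 and Cavin3, 4.0% of genes) and 1 of 8 in stabilized posterior pituitary ECs (Cavin3, 3.34% of genes). Both comparisons share their WT cerebellum libraries with those above.

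**Figure D2:**
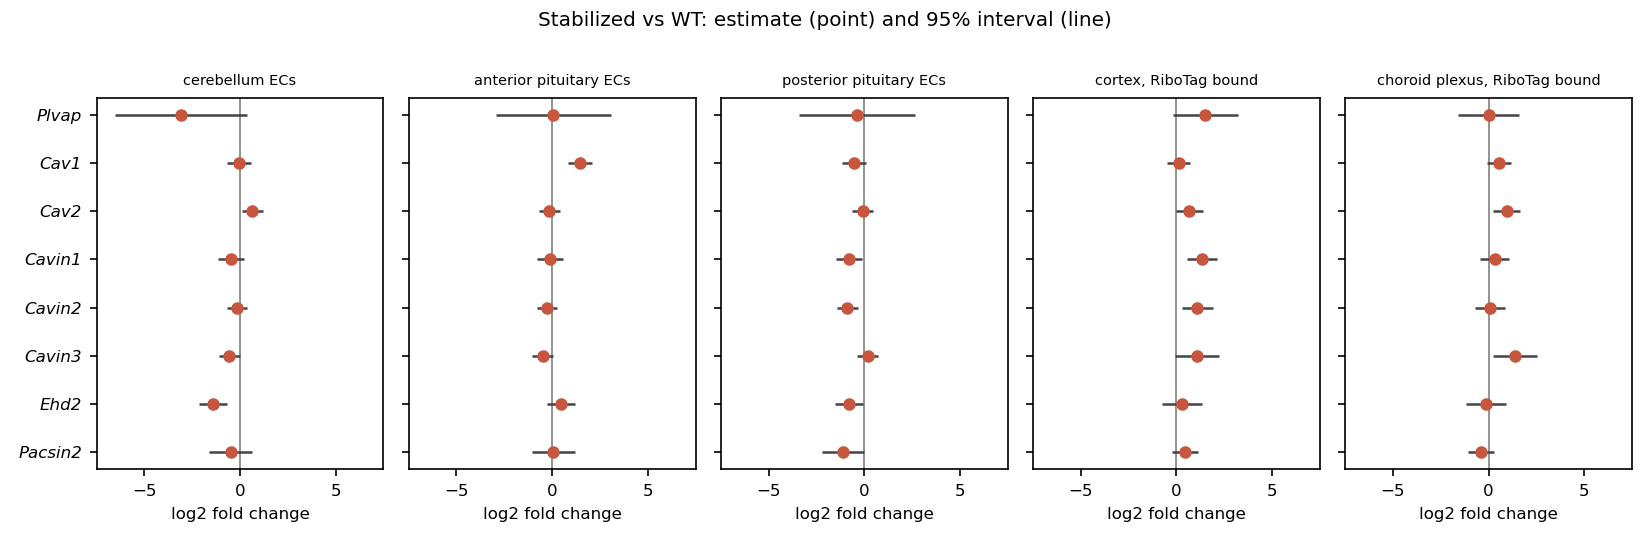
Log2 fold change of stabilized against WT for each member (point) with its 95% interval (line), in ECs of cerebellum, anterior pituitary and posterior pituitary and in bound RNA of cortex and choroid plexus. The Plvap lines of sorted ECs are the longest and span 0. In sorted ECs 2 lines in cerebellum, 1 in anterior and 3 in posterior pituitary do not reach 0. In bound RNA 2 lines in cortex and 2 in choroid plexus do not. Among those of sorted ECs are the Cav1 line in anterior pituitary (0.83 to 2.1) and the Ehd2 line in cerebellum (-2.16 to -0.68).

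In GFP-negative cells none of the members was called between genotypes by edgeR. In cerebellum 0.76% of genes were called, 2 members had an unadjusted p under 0.05 and DESeq2 called 2 (Cavin1 and Cavin2). Cavin1 there had 32.5 and 39.1 CPM in WT and 6.84 and 9.52 CPM in stabilized cells. In the anterior pituitary, at 0.0408% of genes, these counts were 1 and 1, the member being Cav1, with 0 and 0.0535 CPM in WT and 6.32 and 4.21 CPM in stabilized cells. In the posterior pituitary, at 0.133% of genes, they were 3 and 2. The latter were Cav1 and Ehd2, both higher in stabilized cells (DESeq2 log2 differences 4.21 and 2.31). The edgeR estimates were below 0 for 8 of 8 members in cerebellum, 3 of 8 in the anterior and 2 of 8 in the posterior pituitary. Plvap stayed at or under 5.91 CPM in all 12 GFP-negative libraries.

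For Plvap, RiboTag repeated the contrast of vascular beds in other tissues. In bound RNA Plvap was at 2.76 and 6.82 CPM in WT cortex and at 605 and 817 CPM in WT choroid plexus, without overlap (log2 difference of choroid plexus against cortex 7.2 ± 0.93, edgeR adjusted p = 0.00047, and 8.06 without WT cortex replicate 2). Cavin3 was the other member called, at 18.6 and 7.13 CPM in cortex and 21.5 and 57.3 CPM in choroid plexus (1.62 ± 0.52, edgeR adjusted p = 0.042). Its lower library in choroid plexus was close to the higher one in cortex, and the call was lost with endothelial marker scaling (1.02, adjusted p = 0.13), with the replicate block (1.60, adjusted p = 0.065), in the groups compared alone (1.63, adjusted p = 0.11), with the length offset (0.85, adjusted p = 0.30), and without replicate 2 of either group (1.15 and 0.83). Without replicate 1 of either group the difference of Cavin3 was 2.45 and 2.28. With the length offset Cavin1 (1.61, adjusted p = 0.0092) and Cavin2 (1.59, adjusted p = 0.026) were called. Cavin2 was also called by DESeq2 (1.06, DESeq2 adjusted p = 0.015). By edgeR it was called with RLE scaling (1.06, adjusted p = 0.044) and without the filter on low counts (1.08, adjusted p = 0.0020). Without WT cortex replicate 1 edgeR also called Cavin1 (1.16), Cavin2 (1.59) and Ehd2 (1.32), and without choroid plexus replicate 1 Cavin2 (1.39). Cav1 was at 88.2 and 74.4 CPM in cortex and 48.7 and 68.9 CPM in choroid plexus, and Cav2 at 37.2 and 31.7 against 25.5 and 40.7 CPM. In all, 2 of 8 members were called, where 29.7% of the 16775 genes tested were.

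The 2 WT cortex bound libraries differed from each other in most members. Cavin1 stood at 213 and 105 CPM, Cavin2 at 115 and 55.6 CPM, Ehd2 at 99.7 and 32.5 CPM and Pacsin2 at 109 and 60.6 CPM, and replicate 1 was the higher in each. In choroid plexus the order was the other way for Cavin1 (187 and 284 CPM), Cavin2 (131 and 205 CPM) and Ehd2 (63.3 and 100.4 CPM). Markers of other cells were present in bound RNA. In cortex the 6 neuron markers summed to 2307 to 2889 CPM in WT and 1132 to 1147 CPM in stabilized libraries, and the 5 oligodendrocyte markers to 2083 to 2084 and 803 to 981 CPM. The 8 microglia and macrophage markers there summed to 2894 to 4290 CPM in WT and 3495 to 3642 CPM in stabilized libraries, with overlap. In choroid plexus bound RNA the 5 markers of its epithelium summed to 42719 to 43197 CPM in WT and 23308 to 26125 CPM in stabilized libraries. The 10 endothelial markers themselves summed to 876 to 1831 CPM in WT and 2224 to 2335 CPM in stabilized cortex, and to 1799 to 2279 and 2724 to 3010 CPM in choroid plexus. The 6 fibroblast markers summed to 231.5 and 212 CPM in WT and 258 and 413 CPM in stabilized choroid plexus, and to 49.1 to 69.8 CPM in cortex of both genotypes. The part of these markers in the values of the members was not tested.

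Against input, the bound RNA was enriched in most members. In choroid plexus Plvap had 527 and 729 CPM in bound and 40.1 and 37.0 CPM in input RNA (log2 difference 4.03), and 7 of 8 members were called higher (15.3% of genes in either direction), Pacsin2 again excepted. With the length offset 3 of the 8 were called. Without bound replicate 2 the calls of Cavin1, Cavin2 and Cavin3 were lost (0.57, 0.61 and 0.58), as they were without either input library. With same-numbered bound and input libraries as pairs, the difference of Cavin1 was 0.999, under the minimum fold, and 6 of 8 were called. In cortex 5 of 8 were (11.6% of genes): Cavin1 (3.94), Ehd2 (3.74), Cav1 (3.40), Cavin2 (3.29) and Cav2 (1.2). The differences of Cavin1, Cavin2 and Ehd2 there were 4.69, 4.05 and 4.67 without WT cortex bound replicate 2, and that of Ehd2 was 3.02 without replicate 1. Plvap was not called there, with 2.27 and 6.11 CPM in bound and 2.73 and 2.15 CPM in input RNA (0.79, edgeR adjusted p = 0.46), but was without the filter on low counts (1.10, adjusted p = 0.0014).

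With beta-catenin stabilized, Plvap in choroid plexus bound RNA was at 812 and 608 CPM, against 605 and 817 CPM in WT, and the ranges nearly coincided (log2 difference 0.00 with a 95% interval from -1.57 to 1.57). Cavin3 was at 99.9 and 105 CPM against 21.5 and 57.3 CPM, both stabilized libraries above both WT ones (1.38 ± 0.52, edgeR adjusted p = 0.28). Cav2 was at 56.7 and 71.0 against 25.5 and 40.7 CPM (0.95, edgeR adjusted p = 0.23). None of the 8 was called by edgeR, with 0.852% of genes called, 2 members at an unadjusted p under 0.05 and none called by DESeq2. Against WT cortex, Plvap of stabilized choroid plexus remained higher by 7.19 (8.14 without WT cortex replicate 2), and 2 of 8 members were called (Plvap and Cavin3, 28.5% of genes). Without WT cortex replicate 1 the difference of Cavin3 was 3.83, where the full data gave 3.0, and Cavin1 (1.48), Cavin2 (1.65) and Ehd2 (1.19) were called too. With the length offset Cavin1 (2.43) and Cavin2 (1.58) were.

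In cortex bound RNA Plvap was at 2.76 and 24.4 CPM in stabilized and 2.76 and 6.82 CPM in WT libraries (1.51 ± 0.76, edgeR adjusted p = 0.27). Cavin1 was at 432 and 383 against 213 and 105 CPM, with no overlap (1.36 ± 0.35, edgeR adjusted p = 0.050, which did not pass, against 2.53 and a call with the length offset), and Cavin2 at 190 and 174 against 115 and 55.6 CPM. None of the 8 members was called by edgeR, with 6.32% of genes called and 2 members at an unadjusted p under 0.05, and DESeq2 called 2, Cavin1 and Cavin2. The estimates were above 0 for 8 of 8 members, and for 4 of 8 when scaled to the summed endothelial markers. Without WT replicate 1 edgeR called both (1.96 and 1.70), and without stabilized replicate 1 it called Plvap (2.27, adjusted p = 0.049). For the difference of the genotype effect between the tissues 2.15% of genes and none of the members were called by edgeR, none had an unadjusted p under 0.05 and DESeq2 called none. Without WT cortex replicate 1 edgeR called Cavin1 (-1.64, adjusted p = 0.038, against -1.04 in the full data), and without the filter on low counts Plvap (-1.48, adjusted p = 0.015). The median effective transcript length was 782 to 980 bases in the 4 WT cortex RiboTag libraries and 944 to 1352 bases in the other 12, so that the ranges overlapped. With an offset for effective length Cavin1 was called between genotypes in cortex bound RNA, at a log2 difference of 2.53 (adjusted p = 0.0071), as the 1 member of 8. The 658-base Cavin1-202, annotated as a processed transcript, took 0 to 82.7% (median 71.3%) of Cavin1 TPM over the 8 bound libraries. The coding Cavin1-201 (3491 bases) stayed at or under 44.4 TPM there, where the gene reached 110 and 139 TPM in stabilized cortex. The part of this assignment in the length-offset values of Cavin1 in bound RNA was not tested.

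In input RNA, that of whole tissue, 2 members were called higher in stabilized cortex. Plvap was at 2.23 and 1.72 CPM in WT and 8.27 and 7.02 CPM in stabilized cortex, without overlap (1.95 ± 0.20, edgeR adjusted p = 0.00073). Cavin1 was at 7.36 and 6.79 against 16.3 and 13.2 CPM (1.06 ± 0.14, edgeR adjusted p = 0.0021), or 0.90 without stabilized replicate 1 and 0.999 without WT replicate 2, both under the minimum fold. These were the 2 of 8 members called, where 11.8% of the 16085 genes tested were. Whether these effects differ from those in bound RNA was not tested. Beside them, the 10 endothelial markers summed to 34.5 to 44.9 CPM in WT and 115 to 121 CPM in stabilized cortex input, and the 5 markers of choroid plexus epithelium to 10.6 to 11.9 and 35.8 to 396 CPM, and their part was not tested. With the length offset the Plvap difference was 0.96 (adjusted p = 0.045), under the minimum fold. In choroid plexus input Plvap was at 24.2 and 21.97 CPM in stabilized against 38.4 and 33.9 CPM in WT tissue (-0.64 ± 0.17, 95% interval from -1.04 to -0.25, edgeR adjusted p = 0.41). None of the 8 was called there by edgeR, with 0.106% of genes called, 1 member at an unadjusted p under 0.05 and none called by DESeq2.

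**Figure D3:**
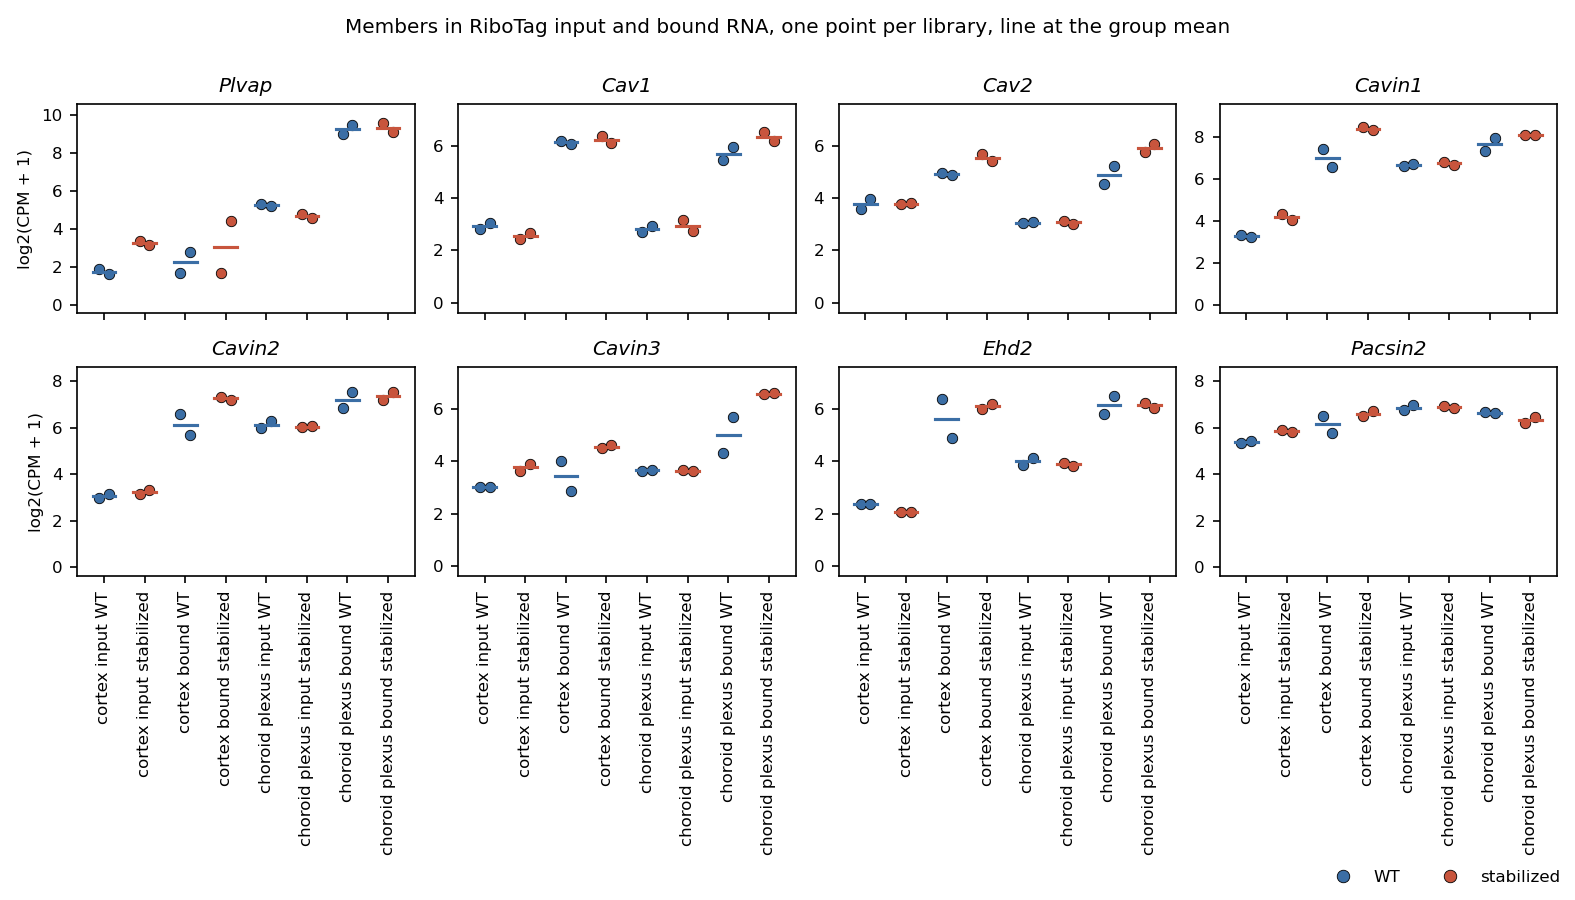
Level of each member in RiboTag input and bound RNA of cortex and choroid plexus as log2(CPM + 1), with 1 point per library and a line at the group mean, WT in blue and stabilized in red. Bound RNA of choroid plexus held 527 to 769 CPM of Plvap on this scaling against 2.27 to 20.7 CPM in bound RNA of cortex, and Pacsin2 was similar in bound and input RNA of choroid plexus.

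Related genes were read from 4 lists. Of 13 other caveola genes, 11 were tested in sorted ECs. Between WT cerebellum and anterior pituitary 2 were higher and 3 lower in cerebellum (5.26% of all genes called), among them Ehd4 (-3.59), a paralogue of Ehd2, Ehd3 (-2.76) and Nos3 (2.67), the nitric oxide synthase of ECs that binds Cav1. Between cerebellum and posterior pituitary 2 were higher and 1 lower (4.4% of all genes): Ehd4 (-2.73), Nos3 (1.83) and the dynamin Dnm3 (1.41). The lobes did not differ by a call in any of the 11, at medians of 0.31 for the list and 0 for all genes, and no gene of the list was called between genotypes in sorted ECs or bound RNA by edgeR. Of 12 clathrin coat genes, 1 was called between cerebellum and anterior pituitary (Ap2a2, an adaptor subunit, 1.70, at the same 5.26% of all genes), and none between cerebellum and posterior pituitary, between the lobes or between genotypes in sorted ECs or bound RNA.

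Vascular endothelial growth factor (VEGF) signaling is known to maintain fenestrae. Of 6 genes, Nrp2 (-2.21), a co-receptor, was lower and Flt1 (2.22), a receptor, higher in WT cerebellum than in anterior pituitary ECs (5.26% of all genes called). Against posterior pituitary, Nrp1 (-1.88), Nrp2 (-1.66) and the main receptor Kdr (-1.29) were lower in cerebellum (4.4% of all genes). With beta-catenin stabilized, Kdr (-1.89 ± 0.32, edgeR adjusted p = 0.012) and Nrp1 (-1.72 ± 0.25, edgeR adjusted p = 0.0045) fell in posterior pituitary ECs (1.79% of all genes called) and Nrp2 (-1.58 ± 0.26, edgeR adjusted p = 0.013) in cerebellum ECs (0.648% of all genes), and none of the 6 was called in anterior pituitary ECs or in bound RNA. Kdr is also 1 of the 10 endothelial markers whose sum was lower in stabilized posterior pituitary ECs. Values of Kdr and Nrp1 scaled to that sum are not given here.

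The fourth list held 8 receptors and regulators of transcytosis. Mfsd2a, a lipid transporter known to hold down caveolar traffic at the blood-brain barrier, was at 370 and 716 CPM in WT cerebellum ECs, at 0 and 0.0314 CPM in WT anterior and at 0 and 0.0608 CPM in WT posterior pituitary ECs. In stabilized ECs it was at 14.5 and 20.7 CPM in the anterior and 182 and 173 CPM in the posterior pituitary, where Plvap was at 2335 and 2361 and at 1585 and 1761 CPM. In stabilized cerebellum ECs Mfsd2a was at 513 and 627 CPM. In choroid plexus bound RNA Mfsd2a was at 2.07 and 1.66 CPM in WT and 104 and 128 CPM in stabilized animals (5.95, edgeR adjusted p = 0.0017), and in cortex bound RNA at 101 and 41.7 CPM in WT and 222 and 189.6 CPM in stabilized animals. The scavenger receptor Cd36 was at 0 in both WT and at 18.2 and 19.4 CPM in both stabilized anterior pituitary libraries. It was at 48.3 and 35.5 CPM in WT and 40.7 and 40.3 CPM in stabilized posterior pituitary ECs, with overlap, and at 0.801 and 0.309 CPM in WT and 1.36 and 7.64 CPM in stabilized cerebellum ECs. The microglia and macrophage markers given above were higher in the stabilized anterior and posterior pituitary libraries, and their part was not tested. In stabilized posterior pituitary ECs the transferrin receptor Tfrc rose with Mfsd2a (3.03 ± 0.66, edgeR adjusted p = 0.039). In all, 2 of the 8 genes were called higher in stabilized anterior pituitary (0.458% of all genes called), 2 in posterior pituitary (1.79%), 0 in cerebellum ECs (0.648%), 1 in choroid plexus (0.852%) and 2 in cortex bound RNA (6.32%).

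The genes most like Plvap across the 20 EC libraries (12 sorted and 8 bound) were named by Pearson's r of log2(TPM + 1) over 9530 genes. They were Tnfaip2 (r = 0.967), Igfbp3 (0.966), Gpihbp1 (0.951), Col13a1 (0.951) and Btnl9 (0.948). Among members the nearest was Cavin3 at rank 86 (0.811), and Cav1 had an r of -0.055. For Cav1 the first 5 were Klhl28 (0.904), Akr1c14 (0.837), Ptprb (0.837), Slc6a6 (0.836) and Ybx1 (0.820), with Cav2 at rank 91 (0.716). These correlations describe libraries that share tissues, amplification and the TPM scale, and with the 12 sorted libraries alone 1 of the 5 named was kept for Plvap and 1 for Cav1.

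Open chromatin was read from the peak lists of the 12 ATAC-seq libraries, with peaks kept at a fold enrichment and a -log10 q of at least 2. The lists hold no read counts. Between the genotypes of a tissue, 2 against 2 libraries cannot go below an exact p of 0.33. No test was run on any comparison of chromatin, those over more libraries included. Of 66742 merged regions, 100 lay within 50 kb of a member. The start of Plvap had no peak in cerebellum ECs of both genotypes and was open in all 8 pituitary libraries. Its fold enrichment in the anterior lobe was 7.99 and 9.59 for WT and 6.48 and 9.59 for stabilized ECs. In the posterior lobe it was 3.92 and 4.38 for WT and 7.10 and 7.14 for stabilized ECs. The peak was thus kept in stabilized ECs of both lobes. The starts of the other 7 members were open in all 12 libraries, at fold enrichments from 5.10 (Ehd2) to 21.3 (Pacsin2). Among 12388 regions at a gene start 68.5% were open in all 12, and 0.678% in all 8 pituitary and no cerebellum libraries, as for 1 of the 8 members, Plvap.

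Around Plvap (chr8:71497765-71511752, minus strand) there were 24 regions, 8 of them open in all 12 libraries. A region 13591 bases after the start, in an exon at the 3′ end of Plvap and an intron of Gtpbp3, also split pituitary from cerebellum, with a fold enrichment in the anterior lobe of 3.41 and 4.23 (WT) and 3.90 and 5.43 (stabilized), and in the posterior lobe of 2.97 and 3.37 (WT) and 3.43 and 2.67 (stabilized). The region 5270 bases before the start was open in all 4 anterior pituitary libraries (5.40 to 7.13) and in 1 replicate of each genotype in the posterior pituitary (3.15 and 2.64). In cerebellum it had no peak.

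Away from their starts, Cavin3 and Cav2 had regions that differed between the tissues. Near Cavin3 (chr7:105480083-105482300) the region 5390 bases before the start had fold enrichments in the anterior lobe of 9.62 and 11.5 (WT) and 13.1 and 13.6 (stabilized), and in the posterior lobe of 4.51 and 4.45 (WT) and 7.40 and 6.14 (stabilized), with no peak in cerebellum. This was the third region near a member that was open in all 8 pituitary and no cerebellum libraries (3 of 100, against 0.984% of all regions). The reverse held for the region 39881 bases before Cav2 (chr6:17281185-17289115), with 5.40 and 6.12 (WT) and 8.20 and 7.19 (stabilized) in cerebellum ECs and no pituitary peak (1 of 100, against 1.27% of all regions). At the start of Cav1 (chr6:17306335-17341452) enrichment was 5.63 to 9.17 in all libraries, the anterior pituitary included, where its RNA was lowest.

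Across the 100 regions, 26 were open in all 12 libraries (20.4% of all regions). In WT ECs 23 were open in a pituitary lobe and not in cerebellum (19.0% of all regions) and 1 the other way (3.23%). In cerebellum 6 regions had a peak in both stabilized and no WT libraries (7.22% of all regions) and 0 were lost (0.981%). Of these 6, 4 lay near Pacsin2, which had 21 of the 100 regions. In anterior pituitary 0 were gained (4.09%) and 3 lost (2.75%), near Cavin1, Cavin2 and Pacsin2. In posterior pituitary 11 were gained (10.8%), 6 of them near Plvap, which had 24 of the 100 regions, and 0 lost (0.785%). Several of the regions gained near Plvap already had a peak in both WT anterior pituitary libraries, such as those 12635 and 25752 bases after its start. The shares near the members can be read against those of all regions beside them. The lists differed in size between genotypes and between tissues. In posterior pituitary 26402 and 25684 peaks were kept in WT and 36358 and 51666 in stabilized ECs. In cerebellum these were 31797 and 29163 against 43413 and 40751 peaks, and in anterior pituitary 45518 and 60243 against 48942 and 52394.

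**Figure D4:**
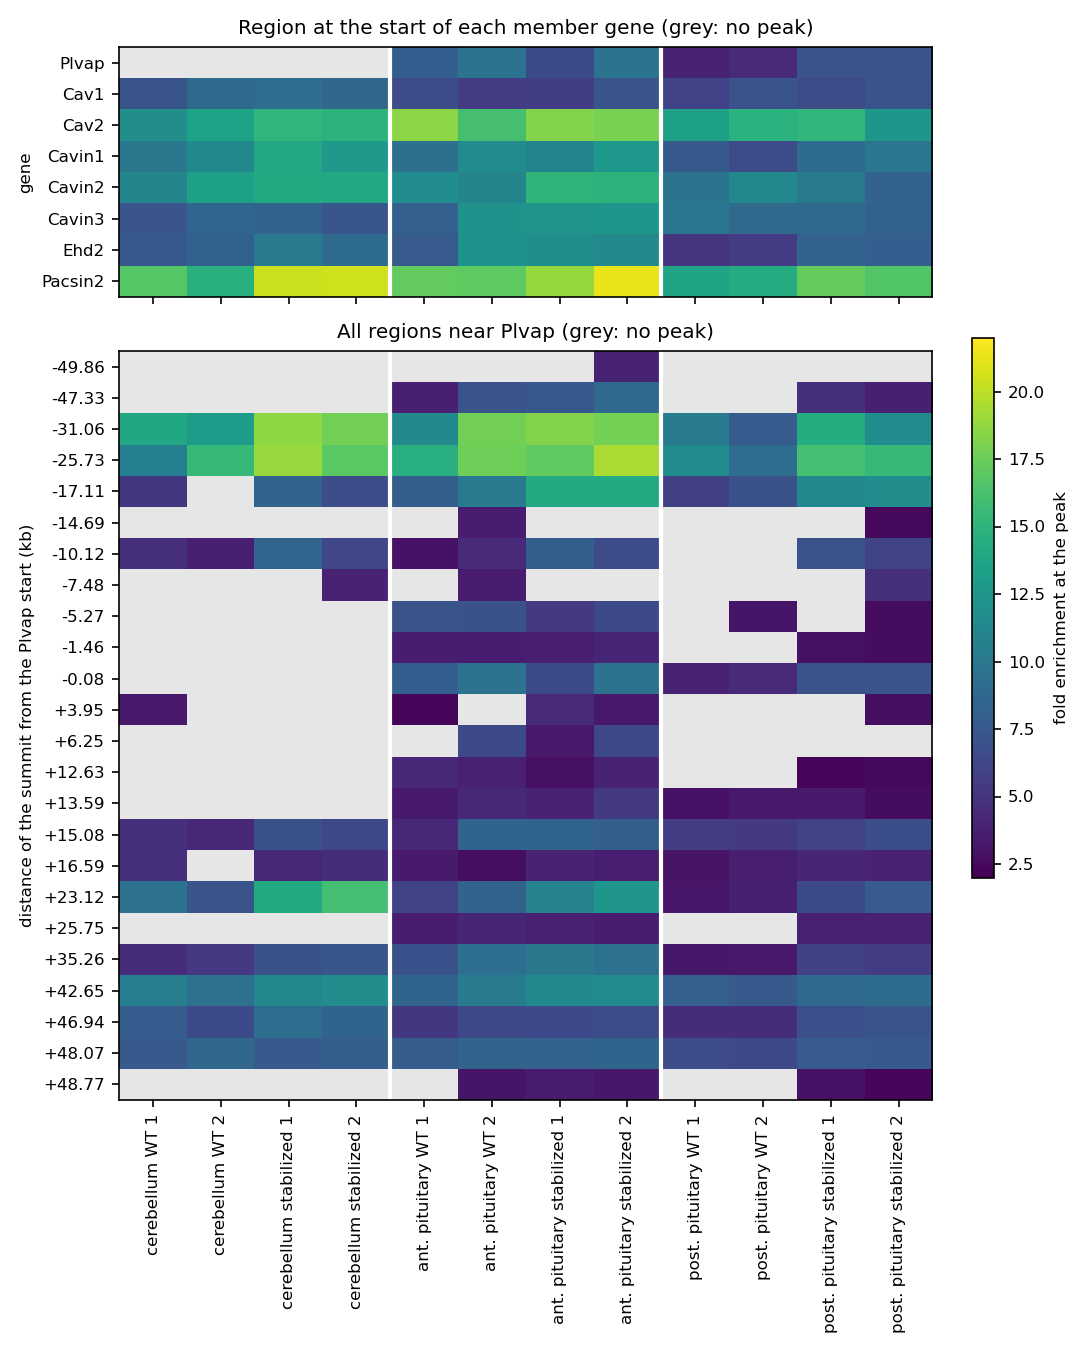
Fold enrichment at ATAC-seq peaks (color, grey for no peak) in the 12 libraries, for the region at the start of each member (top) and for all 24 regions near Plvap by distance of the summit from its start in kb (bottom). The Plvap start is grey in the 4 cerebellum libraries and colored in the 8 pituitary ones, and the other 7 starts are colored throughout.

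In the sequences shown at the beginning, the Plvap start held 1 CAGGAA and 1 GGGCGG match and neither TCF/LEF core. In 300-base windows at the summits, CAGGAA was found in 46.6% of all regions, in 63.8% of those open in all 8 pituitary and no cerebellum libraries and in 26.4% of regions at a gene start. GGGCGG was found in 25.2% of all regions and 69.8% of those at a gene start. The region 5270 bases before Plvap held 1 TTCAAAG, found in 6.97% of all regions, and 2 CAGGAA, where 15.65% of all regions held at least 2. The Cavin3 region held 2 CAGGAA matches as well. The cerebellum region of Cav2 held 2 ATCAAAG matches, where 0.276% of all regions held at least 2. ATCAAAG was found in 5.02% of all regions, 15.7% of those open in all 4 cerebellum and no pituitary libraries and 2.13% of the opposite class. The share with at least 2 was not counted in the class of the Cav2 region. The Cav1 promoter held 1 GGGCGG, found in 35.7% of the 32851 RefSeq promoters. Over the 100 regions near members TTCAAAG was found in 7%, ATCAAAG in 4%, CAGGAA in 41%, CCGGAA in 15% and GGGCGG in 28%, against 6.97, 5.02, 46.6, 13.4 and 25.2% of all regions. The TCF/LEF cores differ from each other in 1 letter and so do the ETS cores, so that no stretch was counted under both, and a match is a description, not a bound site.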

How the data were processed

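Per the labels and the methods, RNA was amplified with the NuGEN Ovation system, sequenced single-end and quantified by the authors with Salmon 0.10.2 on GRCm38 transcripts. The deposited estimated counts and TPM per transcript were summed per gene (49585 genes), and counts were rounded. ATAC-seq reads were mapped with Bowtie2 2.3.2 and peaks called per library with MACS2 2.1.1.20160309. The deposited peak lists give a fold enrichment and a -log10 q-value, and hold no reads. EdgeR 4.0.16 (TMM, filterByExpr, quasi-likelihood, 1 coefficient per group) was fitted over all genes of each kind of library, with Benjamini-Hochberg adjustment, after the method was tested on simulated data, where its estimates were near those put in but most changed genes were not called, so that a member without a call is not shown to be unchanged. EBSeq, which the methods name, was not used here. DESeq2 1.42.0, RLE scaling, no filter, a replicate block, pairs within a preparation, an offset for effective length, the compared groups alone and leaving out each library were tried. Depth ran from 6409013 to 37529274 counts. Input was an aliquot of the homogenate that gave the bound RNA, and GFP-positive and GFP-negative cells came from the same sort. The labels do not say that their numbers match, and deviations of same-numbered libraries correlated at 0.049 to 0.143 and at -0.0038 to 0.0906. Transcripts without a gene held 0.0588 to 0.385% of reads. Kept peaks were merged into regions, a library having a region at an overlap of 1 bp. The named genes are all members, up to 3 called genes of a related list and the 5 most like Plvap and Cav1. The members and lists were chosen with earlier results of these data known. The authors' own comparisons were not used.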

Additional observations from a re-analysis of the deposited data

Results flagged for a closer look

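No member had a genotype effect that differed between tissues by edgeR's test of the difference. Of the related lists, 2 genes had. Mfsd2a had an effect larger in posterior pituitary than in cerebellum ECs by 12.68 on the log2 scale (SE 0.83, adjusted p = 1.9e-05), larger in anterior pituitary than in cerebellum ECs by 9.70 (SE 0.82, adjusted p = 0.00013), and larger in choroid plexus than in cortex bound RNA by 4.43 (SE 0.60, adjusted p = 0.010). For Cd36 the effect of the posterior minus the anterior pituitary was -12.01 (SE 1.61, adjusted p = 0.013), and that of the anterior pituitary minus cerebellum 8.97 (SE 1.63, adjusted p = 0.039). Both genes were at or near 0 in WT pituitary libraries of at least 1 lobe, so that the sorted values depend on the prior count and are no bounds. The effects in anterior pituitary ECs include the library with the conflicting tissue label, and values without it are not given for these genes. The levels in each of these groups are in the report.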

How the results depend on the processing

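Over 208 member results of which 48 were called, 48 calls were kept with RLE scaling and with DESeq2, 46 without the filter, 47 with the replicate block, 39 with the length offset and 40 in the compared groups alone, where 199 results could be fitted. Leaving out 1 library kept 174 of 192 calls. No call turned in direction. Counts of called members that moved by over 1.5 times, or to or from 0, were these, and smaller moves are not listed. Without the filter on low counts they were 2 between the lobes, 2 and 1 for genotype in cerebellum and anterior pituitary ECs, 1, 1 and 3 for the genotype effects posterior minus anterior, posterior minus cerebellum and anterior minus cerebellum, 2 for stabilized posterior pituitary against WT cerebellum, 4, 1 and 1 for genotype in cortex and choroid plexus bound RNA and their difference, and 5 for stabilized choroid plexus against WT cortex. DESeq2 gave 2 between the lobes, 1 for genotype in cerebellum and 1 in anterior pituitary ECs, 1 and 2 for the effects posterior minus anterior and anterior minus cerebellum, 2 for stabilized posterior pituitary against WT cerebellum, 2, 1 and 2 in GFP-negative cells of cerebellum, anterior and posterior pituitary, 2 for genotype in cortex bound RNA and 4 for stabilized choroid plexus against WT cortex. RLE gave 1 and 4 for the last pair. The length offset gave 0 between the lobes, 2 for stabilized posterior pituitary against WT cerebellum, 3 for choroid plexus bound against input, 1 for genotype in cortex bound RNA, 4 for stabilized choroid plexus against WT cortex and 1 for cortex input, which had 4 with no minimum fold. The compared groups alone gave 0 for cerebellum against posterior pituitary, 1 for stabilized anterior pituitary against WT cerebellum and 1 for choroid plexus against cortex. Scaling to the endothelial markers, chosen after the data were seen, gave 1 for genotype in posterior pituitary, 2 for stabilized posterior pituitary against WT cerebellum and 1 for choroid plexus against cortex. The cause of these moves was not tested.

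The lobes came from the same pituitaries, but the labels do not say that their replicate numbers match. Deviations of same-numbered GFP-positive libraries correlated at -0.018 to 0.029 over tissues and genotypes, and at -0.013 (WT) and 0.011 (stabilized) between the lobes. With the block the lobes differed in 1 called member, and their genotype effects in 0, as without it. The replicate block gave 1 member (Cav1) for genotype in anterior pituitary ECs, 2 for stabilized posterior pituitary against WT cerebellum and 1 for choroid plexus against cortex. Within a tissue and genotype, with a replicate block for each preparation, 30 of 31 calls of bound against input and of GFP-positive against GFP-negative cells were kept, and that of Cavin1 in choroid plexus (0.999) fell under the minimum fold.

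With 1 library left out (60 fits) the count of called members was 3 to 3 for cerebellum against anterior and 2 to 4 against posterior pituitary, 1 to 2 between the lobes, 0 to 2, 0 to 1 and 0 to 1 for genotype in cerebellum, anterior and posterior pituitary ECs, 0 to 1, 0 to 0 and 0 to 2 for the effects posterior minus anterior, posterior minus cerebellum and anterior minus cerebellum, 2 to 3 and 2 to 2 for stabilized anterior and posterior pituitary against WT cerebellum, 0 to 0 for genotype in each GFP-negative tissue, 5 to 5, 6 to 7 and 7 to 7 for GFP-positive against GFP-negative cells, 5 to 7 and 4 to 7 for bound against input, 1 to 5 for choroid plexus against cortex, 0 to 2, 0 to 0 and 0 to 1 for genotype in cortex and choroid plexus bound RNA and their difference, 2 to 5 for stabilized choroid plexus against WT cortex, and 1 to 2 and 0 to 0 in input. A lone library was assumed to vary like the other groups.

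At stricter peak limits (4 for fold enrichment, 5 for -log10 q) there were 3 regions gained in cerebellum, 1 gained and 0 lost in anterior and 7 gained in posterior pituitary, 13 of WT pituitary and not cerebellum and 2 the other way. The stricter overlap, of at least 50% of a region, gave 1 gained in anterior pituitary, 1 lost in posterior pituitary and 2 of WT cerebellum alone. Within 10 kb there were 53 regions. With 1 library left out there were 93 to 100 regions, 7 to 12 gained and 0 to 4 lost in cerebellum, 1 to 7 gained and 3 to 12 lost in anterior pituitary, 12 to 21 gained and 0 to 0 lost in posterior pituitary, and 23 to 42 of WT pituitary and not cerebellum and 1 to 3 the other way.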
